A study of Mus musculus with 6 samples.

Results

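Endothelial identity genes were read in bulk RNA-seq of CD11b+ cells that had been purified from subcutaneous TC1 tumors. The 10 genes were chosen by name from the deposited count table of 25701 genes: *Pecam1*, *Cdh5*, *Kdr*, *Flt1*, *Tek*, *Tie1*, *Eng*, *Vwf*, *Emcn* and *Esam*. All 10 were found, and all 10 passed the filter on low counts that left 13485 genes for testing. No threshold on a measured value was used in the choice, although earlier results of these data were known when it was made. The samples came from 3 MCT2 CO and 3 MCT2 KO mice on a C57BL/6 background. Mice of both groups carried the floxed allele and the transgene, written MCT2loxP/loxP; Cre+, and came from MCT2loxP mice crossed with mCre-Tg mice, whose promoter is not named in the methods. Male mice aged 8 weeks received tamoxifen (MCT2 KO) or vehicle (MCT2 CO), so that the drug and the loss of MCT2, which the study describes as systemic, cannot be told apart. TC1 cells, a mouse lung epithelial tumor line, were then injected under the skin of the flank, where the tumors grew for 24 days.

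The 6 libraries held between 24863611 and 31713704 counts. The targeted gene, *Slc16a7*, had 481, 287 and 298 counts in MCT2 CO and 196, 162 and 133 counts in MCT2 KO. The groups did not overlap in counts or in CPM (counts scaled to library size after TMM normalization), and the difference of -1.05 on the log2 scale (SE 0.236) did not pass the test (adjusted p = 0.37, edgeR). The records name purified macrophages from lung, whereas the methods describe CD11b+ bead selection from flank tumors. Macrophage markers were high in all libraries, with 15 genes that summed to between 6204 and 11270 CPM. *Itgam*, which encodes CD11b, had at most 1 count in any sample, and 99.1% of its exon bases lie inside the span of another listed gene, so the marker used for the selection could not be read.

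Endothelial cells line blood vessels and are recognized by the proteins that hold the lining together and by the receptors through which it responds to growth factors. The VEGF receptor encoded by *Kdr* drives sprouting. The angiopoietin receptor TIE2 and its partner TIE1 keep vessels stable, and endoglin presents BMP and TGF-β ligands. Several of these genes are also transcribed outside the endothelium. *Flt1*, *Eng* and *Pecam1* are known from monocytes and macrophages, *Tek* from a subset of monocytes, and *Vwf*, *Esam* and *Pecam1* from platelets and megakaryocytes. CD11b selection is not aimed at endothelial cells, and in bulk RNA fewer cells of a type and less RNA per cell cannot be told apart.

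*Kdr* and *Eng* were lowest and *Emcn* highest in MCT2 KO replicate 2, and the other MCT2 KO samples did not show this split. Promoter sequences are shown for these members and for the member with the highest level (*Flt1*). They are the 250 bases before the start of the gene in RefSeq, build GRCm38.p6, which had an entry for 6 of the 10 members (*Kdr*, *Flt1*, *Tek*, *Tie1*, *Eng* and *Emcn*). *Pecam1*, *Cdh5*, *Vwf* and *Esam* were not matched. Each is written 5′ to 3′ on the strand of the gene, and capitals mark GGAA and its reverse complement TTCC, the core bound by the ETS factors, the family that includes the endothelial factor ERG.
Kdr, chr5:75978456-75978705, minus strand: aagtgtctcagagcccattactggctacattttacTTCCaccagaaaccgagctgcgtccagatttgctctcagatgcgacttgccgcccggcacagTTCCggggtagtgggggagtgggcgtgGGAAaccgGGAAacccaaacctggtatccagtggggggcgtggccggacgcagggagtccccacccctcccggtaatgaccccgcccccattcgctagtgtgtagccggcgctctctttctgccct
Flt1, chr5:147726012-147726261, minus strand: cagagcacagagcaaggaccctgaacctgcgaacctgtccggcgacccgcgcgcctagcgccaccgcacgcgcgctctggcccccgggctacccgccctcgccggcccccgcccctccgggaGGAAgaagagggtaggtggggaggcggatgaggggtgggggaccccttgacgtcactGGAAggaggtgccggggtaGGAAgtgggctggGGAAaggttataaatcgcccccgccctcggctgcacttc
Eng, chr2:32646345-32646594, plus strand: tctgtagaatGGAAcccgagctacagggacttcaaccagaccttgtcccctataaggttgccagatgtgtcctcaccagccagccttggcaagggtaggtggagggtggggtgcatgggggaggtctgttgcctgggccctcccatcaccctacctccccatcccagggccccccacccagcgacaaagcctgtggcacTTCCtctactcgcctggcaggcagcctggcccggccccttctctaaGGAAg
Emcn, chr3:137340828-137341077, plus strand: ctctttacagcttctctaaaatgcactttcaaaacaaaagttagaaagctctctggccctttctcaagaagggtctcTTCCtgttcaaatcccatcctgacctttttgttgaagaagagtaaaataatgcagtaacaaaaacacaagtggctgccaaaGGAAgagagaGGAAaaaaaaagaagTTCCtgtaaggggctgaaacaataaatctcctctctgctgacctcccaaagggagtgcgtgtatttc

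The core occurred 4 times in the windows of *Kdr*, *Flt1* and *Emcn* and 3 times in that of *Eng*, counted on both strands. Of 27025 RefSeq promoters of this length, 93.4% held at least 1 such match, with a median of 3. The window of *Tie1* had 7 matches, as many as or more than which were found in 3.77% of promoters, and that of *Tek* had 2. The longer string CCGGAA, which contains the core, was found once among these windows, in *Kdr*, against 12.2% of all promoters. GGGCGG, the GC box, matched at 2 positions in *Kdr* and 3 in *Flt1* and was absent from the other windows, with a share of 32.9% over all promoters. TATAA matched in *Flt1* at overlapping positions on opposite strands and at 1 position in *Eng*, against 23.5% of all promoters. The GC content was 70.4% in *Flt1*, 62.4% in *Eng*, 61.6% in *Kdr* and 40.8% in *Emcn*, where the median over all promoters was 52.0%. A match of letters describes the window and is not evidence of binding.

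None of the 10 endothelial identity genes differed between MCT2 KO and MCT2 CO beyond the spread between mice. A gene was called where the quasi-likelihood p from edgeR, adjusted by Benjamini–Hochberg over all genes tested, was at most 0.05 and the fold change on the log2 scale was at least 0.58 in size. Of the 10 members 0 were called, and so were 0% of all genes. DESeq2 called 0.586% of the same genes and 0.448% of all genes with a count, and 0 of the members in either fit. At an unadjusted p under 0.05 there were 0 of the 10 by edgeR, against 9.37% of all genes (3.77% higher and 5.60% lower in MCT2 KO). The MCT2 KO and MCT2 CO samples overlapped in all 10, whereas in 15.8% of all genes tested they did not (7.07% higher and 8.77% lower in MCT2 KO). On the log2 scale, MCT2 KO was above MCT2 CO for 7 members and below it for 3, where 50.1% of all genes were above, and the median difference was 0.28 for the members and 0.00037 for all genes. The median of the members was 0.12 without MCT2 KO replicate 2 and 0.15 without MCT2 KO replicate 3 or MCT2 CO replicate 1. The adjusted p values ran from 0.574 for *Cdh5* to 0.923 for *Tek*. The 95% intervals, which are not adjusted for the number of genes, reached by between 0.207 (*Flt1*) and 0.882 (*Emcn*) on the log2 scale to either side of the estimate. Smaller differences were not detectable with this number of mice, and larger ones could still miss the adjusted threshold. The smallest adjusted p over all genes tested was 0.1445 by edgeR.

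**Figure D1:**
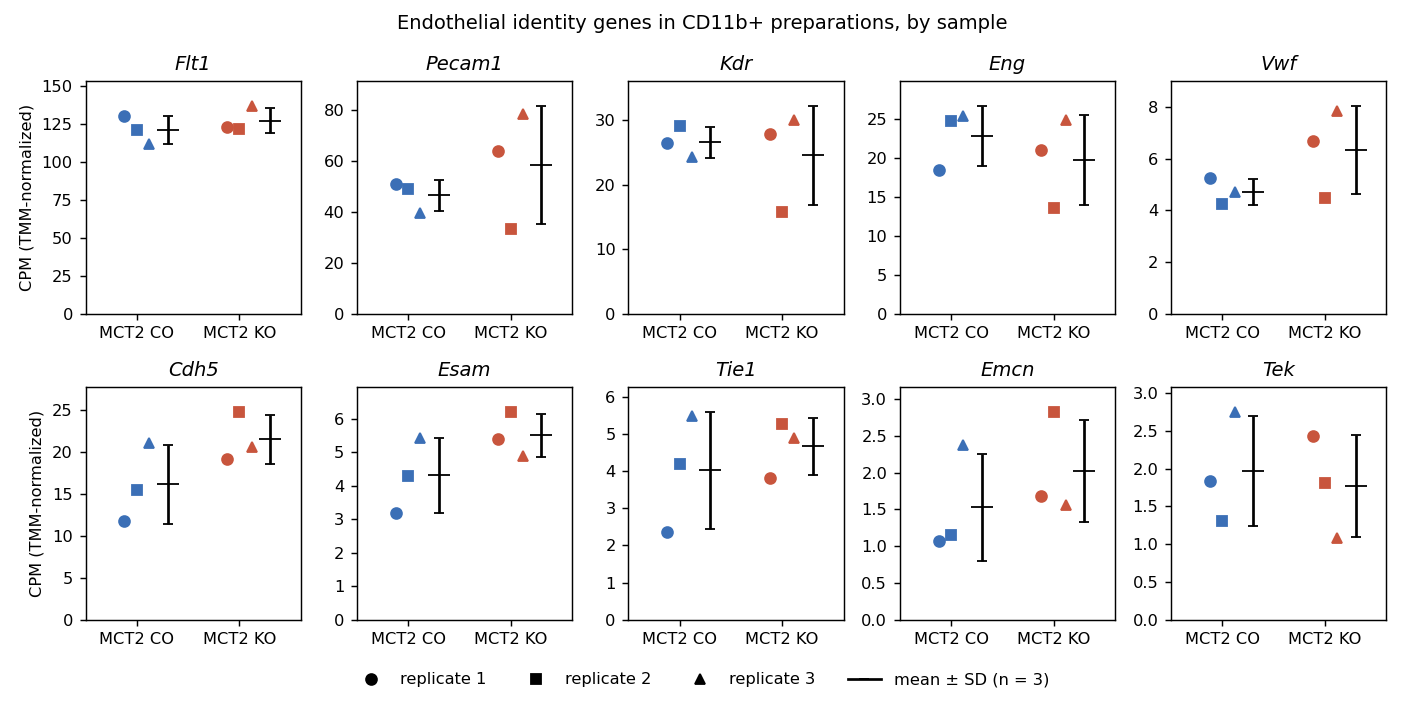
TMM-normalized CPM (vertical axis, from 0, scaled per gene) of the 10 endothelial identity genes in the MCT2 CO and MCT2 KO samples. Symbols mark the replicates and bars the mean ± SD (n = 3); the groups overlap in every panel, and MCT2 KO replicate 2 (square) is lowest for *Pecam1*, *Kdr* and *Eng* and highest for *Cdh5*, *Esam* and *Emcn*.

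Of the VEGF receptors, *Flt1* encodes VEGFR1, which binds VEGF-A, VEGF-B and placental growth factor, and sits on chromosome 5, minus strand (147561604 to 147726011, GENCODE M21 on GRCm38, as for all positions of genes given here). Its level was 130.3, 121.2 and 112.2 CPM in MCT2 CO replicates 1 to 3 and 123.2, 122.1 and 137.0 CPM in MCT2 KO replicates 1 to 3. This was the steadiest of the 10 genes, with a highest value 1.22 times the lowest. On the log2 scale the groups differed by 0.07 (SE 0.0898, adjusted p = 0.826 by edgeR), and the 95% interval, from 0.911-fold to 1.21-fold, was the narrowest of the members. The value was 0.019 without MCT2 CO replicate 3, 0.025 without MCT2 KO replicate 3 and 0.13 without MCT2 CO replicate 1. *Kdr* encodes VEGFR2, the main signalling receptor for VEGF-A in endothelium, and sits on chromosome 5, minus strand (75932827 to 75978458). It had 26.5, 29.0 and 24.2 CPM in MCT2 CO and 27.8, 15.8 and 30.1 CPM in MCT2 KO. MCT2 KO replicate 2 alone lay below the MCT2 CO range, and the other MCT2 KO samples lay within or just above it. For *Kdr* the log2 difference was -0.12 (SE 0.220, adjusted p = 0.891 by edgeR), and 0.12 without MCT2 KO replicate 2.

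The angiopoietin receptors were among the low members. *Tek* encodes TIE2, on chromosome 4, plus strand (94739289 to 94874976). It had 1.83, 1.31 and 2.75 CPM in MCT2 CO and 2.43, 1.81 and 1.08 CPM in MCT2 KO, from 27 to 73 counts per sample. Its samples were mixed between the groups. The log2 difference was -0.15 over all samples (SE 0.369, adjusted p = 0.923 by edgeR), 0.17 without MCT2 CO replicate 3 and 0.11 without MCT2 KO replicate 3. *Tie1*, the orphan relative that modulates TIE2, sits on chromosome 4, minus strand (118471191 to 118490061). It had 2.37, 4.19 and 5.49 CPM in MCT2 CO and 3.82, 5.28 and 4.90 CPM in MCT2 KO. The lowest and the highest value both belonged to MCT2 CO. *Tie1* differed by 0.22 on the log2 scale (SE 0.301, adjusted p = 0.844 by edgeR), and by -0.05 without MCT2 CO replicate 1.

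*Eng* encodes endoglin, a co-receptor for BMP9 and TGF-β, and sits on chromosome 2, plus strand (32646595 to 32682669). Of its exon bases, 1.51% fall inside the span of *Fpgs* on the opposite strand; for the other 9 members the share was 0. It had 18.4, 24.8 and 25.4 CPM in MCT2 CO and 21.1, 13.5 and 24.9 CPM in MCT2 KO. As for *Kdr*, MCT2 KO replicate 2 was the lowest sample. The difference of *Eng* on the log2 scale was -0.21 (SE 0.224, adjusted p = 0.797 by edgeR), and 0.0086 without MCT2 KO replicate 2.

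The junction members comprised *Pecam1*, *Cdh5* and *Esam*. *Pecam1* encodes the adhesion molecule CD31, on chromosome 11, minus strand (106654217 to 106750628). It had 50.9, 48.9 and 39.6 CPM in MCT2 CO and 63.7, 33.1 and 78.4 CPM in MCT2 KO. The MCT2 KO samples lay on both sides of all MCT2 CO samples, and their coefficient of variation was 39.5%, against 13.0% in MCT2 CO. MCT2 KO exceeded MCT2 CO by 0.33 on the log2 scale (SE 0.276, adjusted p = 0.740 by edgeR), and by 0.61 without MCT2 KO replicate 2 (unadjusted p = 0.00215, adjusted p = 0.362, edgeR). Without MCT2 KO replicate 3 it was 0.065.

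*Cdh5* encodes VE-cadherin, the adherens junction protein regarded as most specific to endothelium, and sits on chromosome 8, plus strand (104101625 to 104144511). It had 11.8, 15.5 and 21.1 CPM in MCT2 CO and 19.2, 24.7 and 20.5 CPM in MCT2 KO. Only MCT2 CO replicate 3 reached the range of the MCT2 KO samples. The mean was 16.1 ± 4.68 CPM (SD, n = 3) in MCT2 CO and 21.5 ± 2.91 CPM (SD, n = 3) in MCT2 KO. The log2 difference of 0.42 (SE 0.207) had a 95% interval of -0.06 to 0.89 and the smallest adjusted p of the members (0.574, edgeR; exact two-sided permutation test of the CPM, p = 0.3, where 0.1 is the smallest possible). Without MCT2 CO replicate 3 it was 0.66, with an unadjusted p of 0.00577 and an adjusted p of 0.793 by edgeR, and without MCT2 CO replicate 1 it was 0.23. *Esam*, an immunoglobulin-like molecule of endothelial tight junctions, sits on chromosome 9, plus strand (37528078 to 37538319). It had 3.20, 4.31 and 5.42 CPM in MCT2 CO and 5.41, 6.20 and 4.90 CPM in MCT2 KO, with the same low sample as *Cdh5*, MCT2 CO replicate 1. It differed by 0.36 on the log2 scale (SE 0.219, interval -0.15 to 0.86, adjusted p = 0.645 by edgeR), and by 0.56 without MCT2 CO replicate 3 (unadjusted p = 0.0327, adjusted p = 0.819, edgeR) but by 0.18 without MCT2 CO replicate 1.

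*Emcn* encodes endomucin, a sialomucin of capillary and venous endothelium, on chromosome 3, plus strand (137341067 to 137432185). It had 1.07, 1.15 and 2.37 CPM in MCT2 CO and 1.68, 2.82 and 1.57 CPM in MCT2 KO, from 30 to 92 counts. MCT2 CO replicate 3 and MCT2 KO replicate 2 stood above the other samples. The log2 difference of 0.42 (SE 0.383, adjusted p = 0.763 by edgeR) had the widest fold interval of the members (0.724-fold to 2.46-fold) and moved to 0.09 without MCT2 KO replicate 2 and to 0.88 without MCT2 CO replicate 3. *Vwf* encodes von Willebrand factor, the clotting protein stored in endothelial granules and platelets, on chromosome 6, plus strand (125546774 to 125686679). It had 5.24, 4.23 and 4.70 CPM in MCT2 CO and 6.71, 4.48 and 7.83 CPM in MCT2 KO. MCT2 KO replicates 1 and 3 lay above every MCT2 CO sample and replicate 2 within them. On the log2 scale *Vwf* differed by 0.42 (SE 0.224, interval -0.10 to 0.94, adjusted p = 0.596 by edgeR), and by 0.62 without MCT2 KO replicate 2 (unadjusted p = 0.00846, adjusted p = 0.369, edgeR) but by 0.25 without MCT2 KO replicate 3.

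**Figure D2:**
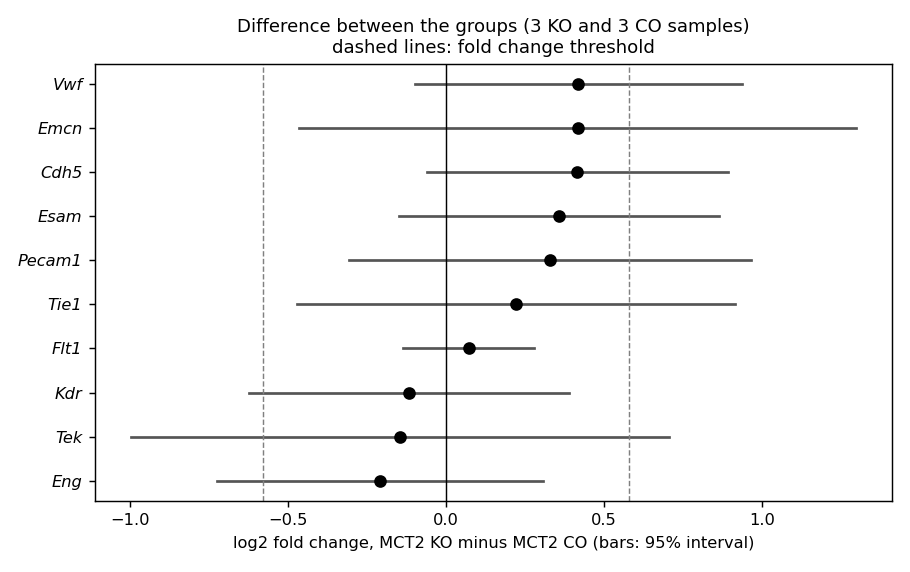
Log2 fold change of MCT2 KO over MCT2 CO (horizontal axis) for the 10 genes, with points for the edgeR estimate, bars for the 95% interval and dashed lines at the fold change threshold. Every interval contains 0, the narrowest being that of *Flt1* and the highest upper bound that of *Emcn* (1.30).

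Levels were compared between genes per kilobase of merged exons, since the genes differ in length. Over the 6 samples the mean level was 9.21 CPM per kb for *Flt1*, 8.42 for *Pecam1*, 5.28 for *Eng*, 4.47 for *Cdh5*, 2.83 for *Kdr* and 1.71 for *Esam*. The other four were lower, at 0.883 CPM per kb for *Tie1*, 0.397 for *Tek*, 0.344 for *Vwf* and 0.328 for *Emcn*. The ranges of neighbours in this order overlapped in all 9 cases, although within a sample *Pecam1* exceeded *Eng*, *Esam* exceeded *Tie1* and *Tie1* exceeded *Tek* in 6 of 6. *Flt1* exceeded *Pecam1* in 4 of 6 samples and *Vwf* exceeded *Emcn* in 4 of 6. For scale, the macrophage receptor gene *Csf1r* stood at 172 CPM per kb. Summed over the 10 genes, *Flt1* supplied 47.7% of the CPM. *Flt1* was 2.79 to 3.29 times *Kdr* per kb in 5 samples and 5.16 times *Kdr* in MCT2 KO replicate 2.

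**Figure D3:**
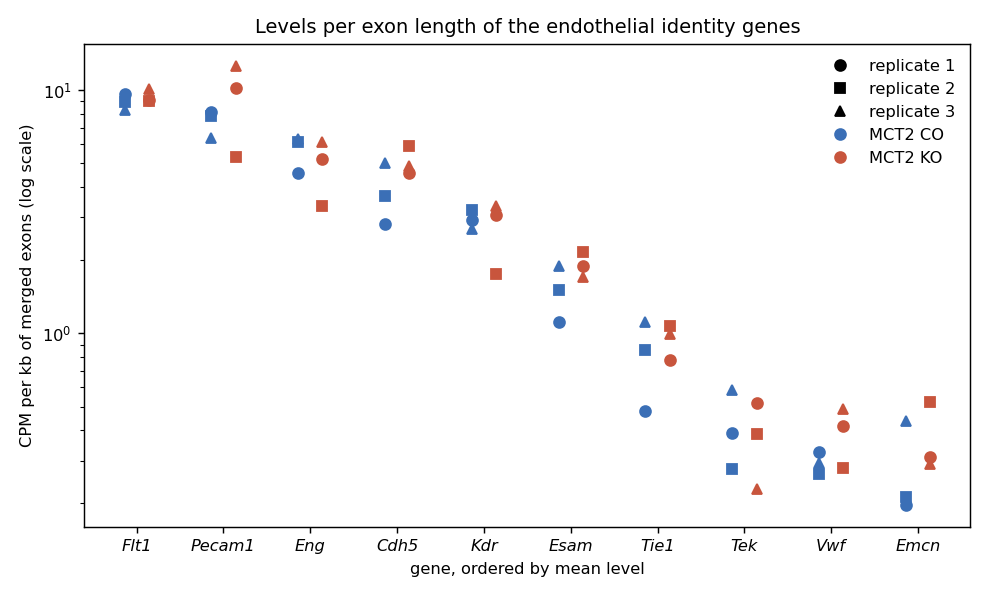
CPM per kilobase of merged exons (vertical log axis) of the 10 genes, ordered by their mean over 6 samples. Colours mark the groups and symbols the replicates; *Flt1* and *Pecam1* lead at 9.21 and 8.42 CPM per kb, and *Tek*, *Vwf* and *Emcn* lie between 0.328 and 0.397.

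The members did not vary together as a single set. *Cdh5*, *Esam*, *Emcn* and *Tie1* were lowest in MCT2 CO replicate 1, and the first 3 of them were highest in MCT2 KO replicate 2. *Pecam1*, *Kdr* and *Eng*, by contrast, were lowest in MCT2 KO replicate 2, and *Vwf* was closer to these, with its highest value in MCT2 KO replicate 3 as for *Pecam1*, *Kdr* and *Flt1*. Both sets were drawn after the values had been seen. On the log2 CPM of the 6 samples, Pearson's r was between 0.768 and 0.973 within *Cdh5*, *Tie1*, *Emcn* and *Esam*, between 0.276 and 0.875 within *Pecam1*, *Kdr*, *Eng* and *Vwf*, and between -0.757 and 0.133 across the sets. Without the 2 samples farthest from the median of the gene named first, all pairs of the first set stayed above 0. In the second set r turned to -0.574 for *Pecam1* and *Eng* and to -0.395 for *Eng* and *Vwf*. Across the sets it turned to 0.955 for *Kdr* and *Tie1* and to 0.622 for *Kdr* and *Esam*. *Flt1*, in neither set, had r = 0.699 with *Pecam1*, 0.676 with *Vwf*, 0.337 with *Kdr* and -0.0691 with *Eng*. The closest pair, *Cdh5* and *Esam*, had r = 0.973 and Spearman's rho = 0.943 (exact permutation p = 0.00417 and 0.0167, adjusted over 45 pairs 0.177 and 0.250), and r = 0.770 without the 2 samples farthest from the median of *Cdh5*. For *Pecam1* and *Kdr*, r was 0.817 and rho 0.829 (exact permutation p = 0.0236 and 0.0583, adjusted 0.177 and 0.438), and r was 0.670 without the 2 farthest samples. *Kdr* and *Emcn* ran opposite ways at r = -0.757 and rho = -0.600 (exact permutation p = 0.0431 and 0.242, adjusted 0.242 and 0.726), a relation that rested on the 2 farthest samples, as r was 0.454 without them. No pair of the 45 passed an adjusted p of 0.05, and the values of a sample share 1 library. The ratio of *Cdh5* to *Kdr* per kb was 0.958, 1.15 and 1.87 in MCT2 CO and 1.48, 3.36 and 1.47 in MCT2 KO, so that the groups overlapped and MCT2 KO replicate 2 stood highest.

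**Figure D4:**
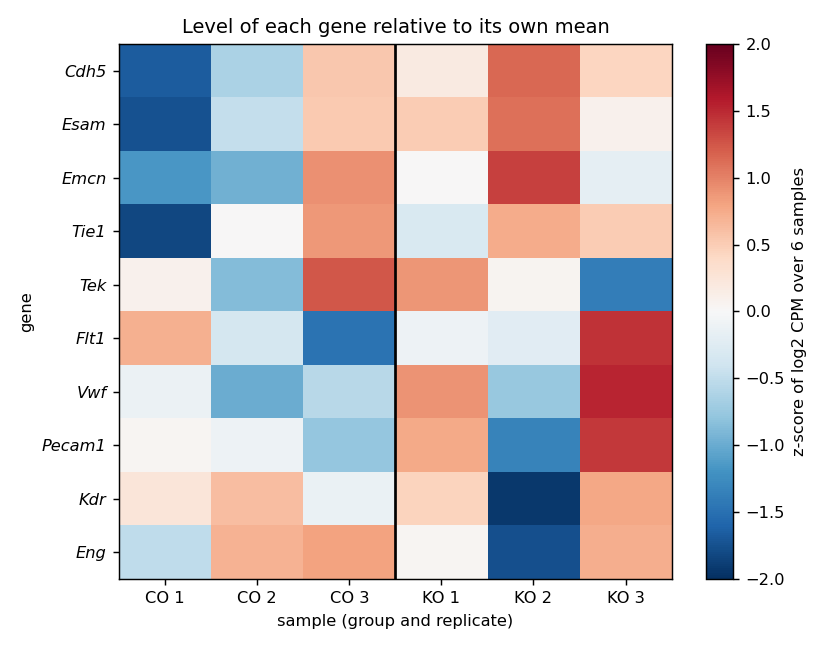
Level of each gene (rows) in each sample (columns) as a z-score of log2 CPM over the 6 samples, red above and blue below the mean of that gene. *Cdh5*, *Esam*, *Emcn* and *Tie1* are lowest in MCT2 CO replicate 1, while *Pecam1*, *Kdr* and *Eng* are lowest in MCT2 KO replicate 2.

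Markers of other cell types were read beside these patterns. Among 23 other pan-endothelial genes tested, MCT2 CO replicate 1 was the lowest sample in 14 (60.9%), where it was the lowest in 13.8% of all genes tested. MCT2 KO replicate 2 was the lowest sample in 1 of these 23. The highest sample was MCT2 CO replicate 3 in 12 of the 23 (52.2%) and MCT2 KO replicate 2 in 7 (30.4%), against 24.9% and 20.4% of all genes. Among 14 macrophage and monocyte genes tested, MCT2 KO replicate 2 was the lowest in 7, and among 18 endothelial transcription factors tested it was the lowest in 9, against 22.7% of all genes. *Erg* (2.52 CPM in MCT2 KO replicate 2), *Sox18* (0.55 CPM) and *Sox7* (2.12 CPM, its highest value) were not among these 9. Fibroblast markers summed to 5388 CPM in MCT2 CO replicate 3, the sample in which *Tie1*, *Tek* and *Eng* were highest, and to between 3139 and 3792 CPM in the other samples. Of the 11 pericyte and smooth muscle markers, *Pdgfrb* had 60.4 CPM in that sample and between 28.7 and 37.1 CPM elsewhere, while MCT2 CO replicate 3 and MCT2 KO replicate 2 were each the highest sample in 4. Platelet markers summed to 86.9 CPM in MCT2 KO replicate 2, where *Cdh5*, *Emcn* and *Esam* were highest, and to between 30.4 and 58.0 CPM in the others. Of the 12 platelet genes, *Pf4*, also made by macrophages, led the sum. *Gp9* and *Gp6* had at most 6 counts in any sample, whereas *Itga2b* had 208 to 290 and *Gp1ba* 36 to 77. MCT2 KO replicate 2 was the highest sample in 3 of the 5 platelet genes tested, against 20.4% of all genes. The part of these cell types in the levels of the members was not tested.

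The other pan-endothelial genes, fixed as a list of 25 of which 23 passed the filter, had a median log2 fold change of 0.25 (members 0.28, all genes 0.00037), with 16 above and 7 below 0. None was called, and *Tm4sf1* was the only one at an unadjusted p under 0.05. The upper end was *Arhgef15*, an endothelial exchange factor, at 1.17 ± 0.395 CPM in MCT2 CO and 1.80 ± 0.247 CPM in MCT2 KO (SD, n = 3, adjusted p = 0.563, edgeR). At the lower end, *Rasip1*, needed for vessel lumens, had 10.6 ± 2.64 and 8.08 ± 0.753 CPM in the same order. *Tm4sf1* had by far the highest level of the list, 1865 ± 280 CPM in MCT2 CO and 2588 ± 514 CPM in MCT2 KO. Its mean of 535 CPM per kb exceeded the 172 of the macrophage gene *Csf1r*, and the cells that supplied it were not tested. The tight junction gene *Cldn5*, on the other hand, stood at 0.400 CPM per kb, near *Tek*.

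Ligands of the members were measured in the same libraries and are given for their role. *Vegfa*, the ligand of both VEGF receptors, had 265 ± 51.5 CPM in MCT2 CO and 283 ± 71.5 CPM in MCT2 KO (SD, n = 3). *Pgf*, a ligand of VEGFR1 alone, had 36.3 ± 4.52 and 45.2 ± 7.89 CPM. *Angpt1*, which activates TIE2, had 13.9 ± 3.81 CPM in MCT2 CO and 9.44 ± 0.948 CPM in MCT2 KO, with no overlap between the groups and an adjusted p of 0.481 (edgeR). *Angpt2* and the endoglin ligand gene *Gdf2* were at 0 counts in all samples, and 100% of the exon bases of *Angpt2* lie inside another listed span, so its 0 cannot be read as a level. In the VEGF list 0 of 22 genes passed, from *Nrp1*, a VEGF co-receptor, at a log2 fold change of -0.25 to *Prkcb* at 0.40, and in the angiopoietin list 0 of 10, from *Svep1* at -0.81 to *Dok2*, an adaptor of TIE2, at 0.50.

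Around endoglin, 17 of 20 listed ligands, receptors, Smads and targets were tested, 15 of which were below 0 and none of which passed. The median log2 fold change was -0.11, and the range ran from *Id1*, a BMP target, at -1.50 (127 ± 51.4 CPM in MCT2 CO, 45.1 ± 14.7 CPM in MCT2 KO, adjusted p = 0.370 by edgeR) to *Tgfbr1* at 0.21. DESeq2 called *Id1* and *Id3* of this list on the same genes and *Id3* on all genes with a count. The partner receptor gene *Acvrl1* had 41.8 ± 5.71 and 47.2 ± 16.5 CPM and, like *Eng*, was lowest in MCT2 KO replicate 2. Of 19 junction partners none passed, with *Pard6g* at -0.14 and *Jam2* at 0.62 as the ends. Of the von Willebrand factor partners, 9 of 14 were tested and none passed, from *Adamts13*, the cleaving protease, at -0.60 to *Rab27a* at 0.26. Among 18 transcription factors tested 0 passed, with a median of -0.11. Their lowest was *Foxc2* at -0.77 (4.70 ± 0.464 CPM in MCT2 CO, 2.77 ± 0.602 CPM in MCT2 KO, adjusted p = 0.426 by edgeR) and their highest *Sox7* at 0.38.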

How the data were processed

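Total RNA of CD11b+ cells was sequenced as poly-A stranded libraries. According to the methods and the processing notes, the authors checked reads with FastQC 0.12.0 and MultiQC 1.28, aligned them with STAR 2.7.11b to GRCm38 and counted them per gene with featureCounts 2.1.1; they deposited raw read counts, neither normalized nor pooled. The annotation and the strand setting are not given in the sources used here. The start of a gene equals that in GENCODE M21 for 2.2% of 25594 shared identifiers, although 98.1% have the same span, so positions and exon lengths were taken from GENCODE M21 on GRCm38.

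Counts were analysed with edgeR 4.0.16 in R 4.3.3: filterByExpr (minimum count 10, minimum total 15), TMM and quasi-likelihood F tests between the groups of 3, without covariates. Standard errors were taken from the fold change and its F statistic. Log2 CPM used a prior count of 2. Alternatives used DESeq2 1.42.0, limma 3.58.1, other normalizations, filters and thresholds, a replicate block, and each mouse left out. Scripts were tested on simulated data. Within each group all pairs of libraries differed by more than counting noise.

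Members and lists were chosen with earlier results of these data known. Named were all members, the genes with the highest and lowest log2 fold change of each other list, called genes, the gene with the highest mean CPM of 6 marker lists, and the 10 genes most like the members; further genes were named for their role.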

Additional observations from a re-analysis of the deposited data

How the results depend on the processing

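No member was called under any of the alternatives run. The number of genes called over the whole table was 0 by edgeR, by limma-voom, with DESeq2 size factors, with upper-quartile normalization, with at least 1 CPM in 3 samples, without a fold change threshold and with the replicate block. Without a filter beyond 1 count it was 83 by DESeq2 and 2 by edgeR, on the genes tested here it was 79 by DESeq2, and it was 0 to 2 with each mouse left out (2 without MCT2 KO replicate 2). Of the other listed genes, DESeq2 called 9 with either filter (*Col3a1*, *Id3*, *Lum*, *Mmp8*, *Ngp*, *Retnlg*, *S100a8* and *S100a9*, with *Id1* or *Dcn*), and edgeR 0. The share that DESeq2 called over all genes was 0.586% on the genes tested here and 0.448% on all with a count.

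With each mouse left out, the log2 difference ran from -0.28 to 0.12 for *Kdr*, from -0.41 to 0.17 for *Tek*, from -0.051 to 0.52 for *Tie1* and from -0.40 to 0.0086 for *Eng*. The sign turned for *Kdr* (0.12) and *Eng* (0.0086) without MCT2 KO replicate 2, for *Tek* without MCT2 CO replicate 3 (0.17) or MCT2 KO replicate 3 (0.11), and for *Tie1* without MCT2 CO replicate 1 (-0.051). The cause was not tested. The median of the members ran from 0.12 to 0.32 with each mouse left out. With 3 mice a group, no exact permutation test between the groups could reach p = 0.05. Per kb of gene span, only *Flt1* (rank 1) and *Tie1* (rank 7) kept their places among the members. *Pecam1* moved from rank 2 to 4, *Eng* from 3 to 2, *Cdh5* from 4 to 6 and *Kdr* from 5 to 3. Same-numbered samples of the groups deviated together in 1 of 3 pairs (r = 0.216, -0.247 and -0.161). With 3 samples a group these deviations are tied to each other, so a pairing by number was neither shown nor excluded. With the replicate block 0 members and 0 genes were called, and *Cdh5* had an unadjusted p of 0.041 (adjusted p = 0.625, edgeR).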

Other observations

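Genes of particular kinds of endothelium were also read. Among genes known from sprouting tip cells, 9 of 12 were tested and 8 had a log2 fold change above 0, although none was called. The upper end was *Apln*, which encodes the ligand apelin, at 7.74 ± 1.26 CPM in MCT2 CO and 12.8 ± 4.21 CPM in MCT2 KO (SD, n = 3, adjusted p = 0.443, edgeR), and the groups did not overlap. The lower end was *Unc5b*, at a log2 fold change of -0.16. *Esm1* was at 0 counts and lies wholly inside another listed span. Of 13 arterial and venous genes tested, the ends were *Sele*, an adhesion molecule of activated endothelium, at 0.67 and *Ephb4*, a venous receptor, at -0.42 (adjusted p = 0.408, edgeR). Of 8 lymphatic genes, 4 were tested. *Prox1*, the defining factor, had at most 2 counts in any sample, and *Lyve1*, also a macrophage gene, had 1.40 ± 0.624 CPM in MCT2 CO and 0.619 ± 0.314 CPM in MCT2 KO. *Pdpn*, which fibroblasts also express, led that list at 168 ± 10.7 and 209 ± 34.0 CPM.

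Of 11 pericyte and smooth muscle genes, *Kcnj8* was highest in log2 fold change at 1.25, from 5 to 32 counts per sample and with overlapping groups. *Pdgfrb* was lowest at -0.54, with 42.5 ± 16.0 CPM in MCT2 CO and 29.3 ± 0.561 CPM in MCT2 KO. Fibroblast genes had a median of -0.69 over 10 genes, from *Lum* at -1.56 to *Fap* at 0.0074, with *Fn1* at the highest level. Platelet genes ran from *Itga2b* at -0.06 to *Ppbp* at 1.46, and macrophage genes from *Ly6c2* at -0.60 to *Lyz2* at 0.67. The value of *Ppbp* rested on MCT2 KO replicate 2 (3.591 CPM). MCT2 KO replicates 1 and 3 (0.5451 and 0.3615 CPM) lay within the MCT2 CO range of 0.2634 to 0.8672 CPM. Neutrophil genes had a median of 1.53 over 9 genes, from *Cxcr2* at -0.17 to *Ngp* at 4.82. The level of *Ngp* was 0.1334 to 0.3763 CPM in MCT2 CO and 15.26, 3.622 and 1.165 CPM in MCT2 KO replicates 1 to 3. Of 6 epithelial genes, 2 passed the filter, *Epcam* at -0.16 and *Cdh1* at 0.54. None of these genes was called by edgeR.

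The genes whose log2 CPM followed the mean z-score of the 10 members most closely over the 6 samples were *Stoml1*, *Acad10*, *Eif3k*, *Wrn*, *Pgf*, *Slc25a12*, *Ech1*, *Zfp61*, *Hemk1* and *Lage3*, with Pearson's r between 0.943 and 0.989, as a description without a test. All 10 were also among the 10 closest with a prior count of 0.5. *Pgf* is the only gene of the vascular lists among them. None of the members reached r = 0.8 with this mean, against 1.42% of all genes tested.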
